A study of Drosophila melanogaster with 12 samples.

Results

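The genes described here are the core cell cycle and DNA replication genes of Drosophila melanogaster. They were chosen by name, as 35 gene symbols looked up in a table of read counts with 17558 genes, and 34 of them were found. Mcm3 was not analysed here. All 34 passed the filter on low counts and were among the 9686 genes tested.

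RNA was sequenced from midguts of virgin adults, 10 days after hatching. Flies of the dsxRNAi groups carried the dsxRNAi transgene opposite mex1-Gal4 on the second chromosome and 1 copy of tub-Gal80ts on the third. Control flies carried 1 copy of mex1-Gal4 on the second chromosome, and UAS-GFP opposite tub-Gal80ts on the third. The X chromosomes of both genotypes are given as y[1] v[1] over w[*]. The mex1-Gal4 driver acts in the absorptive enterocytes, so the RNA interference against dsx, the sex determination transcription factor gene doublesex, was aimed at those cells while the RNA came from the whole midgut. The temperature-sensitive Gal80 held the driver off for 6 days at 18 degrees C and released it for 4 days at 29 degrees C, in both genotypes. All groups thus carried the driver, the Gal80 and the temperature shift, and the genotypes differed in the dsxRNAi and UAS-GFP transgenes, whose own effects and those of their insertions cannot be told apart from the effect of lowering dsx. Each genotype had 3 libraries of females and 3 of males, 12 in all. What a replicate was, such as a pool of flies or a separate cross, is not given in the labels, so p-values measure the spread between these libraries, which may be technical.

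In a dividing cell, cyclin D with Cdk4 and cyclin E with Cdk2 drive the passage from G1 into S phase, in part by freeing the E2f1/Dp transcription factor, which switches on genes for DNA replication. Origin recognition (Orc) proteins and Dup load the Mcm helicase onto DNA in G1, and cyclin A, cyclin B and Cdk1, switched on by the phosphatase String, then start mitosis. In the adult fly midgut the intestinal stem cells are the main dividing cells, while enteroblasts and enterocytes copy their DNA without dividing, so replication genes can be used in both compartments and mitotic genes chiefly in the stem cells.

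Total counts per library ran from 36212113 to 45068874. The target gene dsx had 16.5, 22.3 and 19.9 normalised CPM (the gene's counts relative to the scaled library size) in dsxRNAi females, against 18.6, 20.3 and 21.3 CPM in control females, and 35.2, 43.1 and 41.2 CPM in dsxRNAi males, against 70.1, 59.1 and 53.2 CPM in control males. It fell in males (log2 change -0.61, adjusted p = 0.00643) and did not pass the test in females (log2 change -0.04, adjusted p = 0.946). Exons of dsx overlap those of lds on the other strand, so reads of that gene may be mixed in if strand was not used in the counting. Myc, a growth regulator, was higher in dsxRNAi males than in control males (log2 change 0.42, adjusted p = 0.0106) and did not pass the test in females (log2 change -0.16, adjusted p = 0.487). Exons of Myc overlap those of CG12535 on the other strand and of a long non-coding RNA on its own. Midgut markers were present in every library. The summed level of 9 enterocyte markers was 33484 to 35325 CPM in dsxRNAi females, 24045 to 34401 in control females, 43958 to 50496 in dsxRNAi males and 29972 to 33525 in control males. Testis markers (9, of which 2 were at 0 throughout) summed to at most 0.225 CPM in any library. Accessory gland markers (6, of which 1 was at 0 throughout) reached a sum of 79.4 CPM in control male 1 and of at most 0.148 CPM in the dsxRNAi libraries. Of the marker genes tested, 3 of 9 for enterocytes were called higher in dsxRNAi males and 1 of 7 for fat body and hemocytes lower. For visceral muscle it was 0 of 7, and for ovary 0 of 7. Of all tested genes 8.05% were called higher and 6.59% lower in males. In dsxRNAi females 2 of 7 fat body and hemocyte markers were called lower and 0 in each of the other marker lists tested. Of all tested genes 1.55% were called lower in females. By edgeR the unadjusted p was under 0.05 for 1 muscle and 0 ovary markers in males.

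Transcript levels differed widely between the members. Per kilobase of exon, the members spanned from 35 normalised CPM per kb for RnrS, the small subunit of ribonucleotide reductase that makes the building blocks of DNA, to 0.151 CPM per kb for the mitotic kinase gene aurA (means of all 12 libraries). Only 4 members lay above 15 CPM per kb, namely RnrS, the 2 subunits of the E2F transcription factor (21.8 for E2f1 and 20.4 for Dp) and geminin (15.9), whose product blocks the loading of the Mcm helicase. CycD (7.66), the checkpoint kinase gene Bub1 (7.65) and Cdk4 (4.63) followed, and 19 of the 34 members lay under 1 CPM per kb, among them the mitotic cyclin genes CycA (0.786) and CycB (0.556). In raw reads, counts of a member in a library ran from 4 (aurA) to 6468 (E2f1), and 9 members had a median count under 50.

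**Figure D1:**
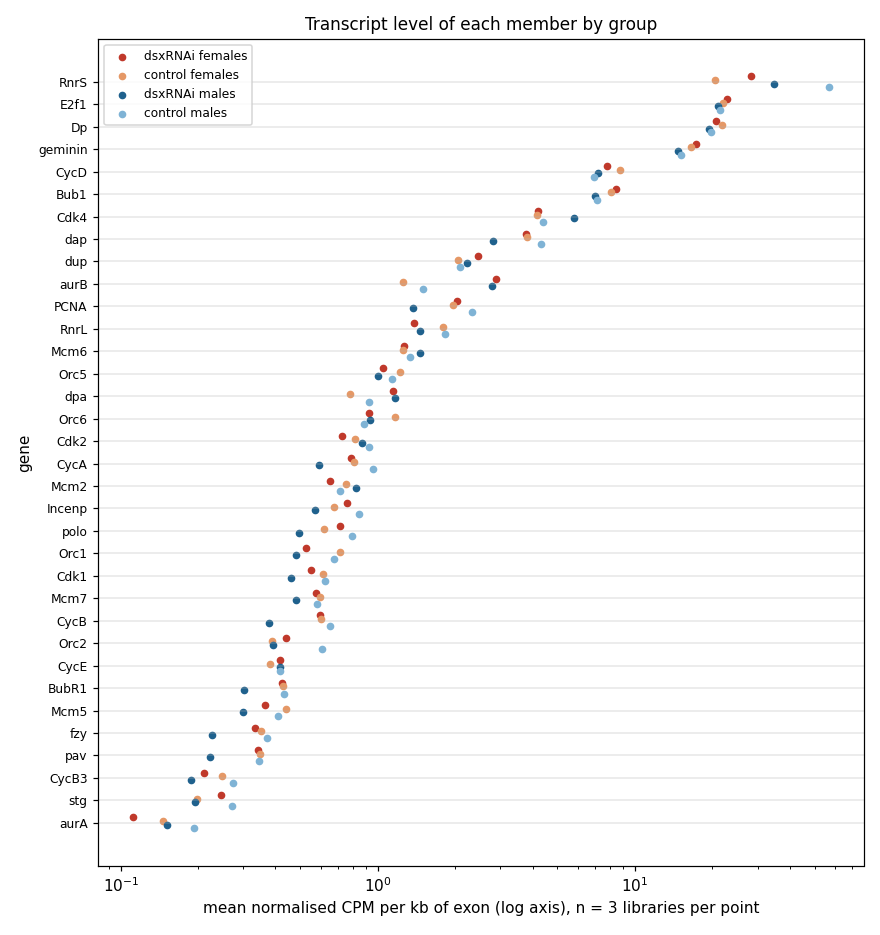
Mean level of each of the 34 members in each group, in normalised CPM per kilobase of exon on a log axis, with 1 point per group of 3 libraries. RnrS, E2f1, Dp and geminin lie above 15 CPM per kb and aurA is lowest, and for most genes the 4 groups lie close together compared with the range between genes.

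Enterocyte dsxRNAi went with few called changes in these genes, and with 1 call shared by both sexes. In females 1 of the 34 members was called by edgeR's quasi-likelihood test at an adjusted p under 0.05, against 3.46% of all tested genes. In males 2 of the 34 were called, against 14.6% of all tested genes. The called genes were aurB, higher in dsxRNAi midguts of each sex, and dap, lower in dsxRNAi males.

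aurB, the gene for the Aurora B kinase that works on chromosomes and the cleavage plane during mitosis (FBgn0024227, chromosome 2L, 10856797 to 10858094, minus strand, dm6), had 3.97, 3.29 and 2.95 CPM in dsxRNAi females, against 2.11, 1.15 and 1.18 CPM in control females. It had 2.88, 3.49 and 3.54 CPM in dsxRNAi males, against 1.51, 1.47 and 2.34 CPM in control males. Each of the 6 dsxRNAi libraries lay above each of the 6 control libraries, so the groups overlapped in neither sex. The rise was 1.19 ± 0.26 on the log2 scale in females (SE, 95% interval 0.63 to 1.76, adjusted p = 0.0237) and 0.89 ± 0.26 in males (95% interval 0.33 to 1.45, adjusted p = 0.0357). The female and male changes differed by 0.30 (95% interval -0.49 to 1.09, adjusted p = 0.763), which the test did not call. The exact two-sided permutation test gave p = 0.1 in each sex, the smallest that 3 libraries against 3 allow. These are low levels, with 46 to 171 reads per library, and the calls were narrow. The female call was lost without dsxRNAi female 1 (adjusted p = 0.0908), dsxRNAi female 2 (0.0717), control female 2 (0.0668) or control female 3 (0.101), and the male call without dsxRNAi male 1 (0.0525), 2 (0.0848) or 3 (0.0869) or control male 1 (0.114) or 2 (0.131), while the log2 change stayed between 0.78 and 1.54 over all 12 leave-outs in both sexes. The female call was also lost when only the female groups were fitted (adjusted p = 0.0779).

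dap, or dacapo, whose product inhibits cyclin E with Cdk2 and so holds cells out of S phase (FBgn0010316, 2R, 9712321 to 9716256, plus strand), had 7.81, 6.36 and 7.21 CPM in dsxRNAi males, against 10.9, 11.1 and 10.8 CPM in control males. The male groups did not overlap, and the control males were close to each other. The change was -0.62 ± 0.17 on the log2 scale (95% interval -0.98 to -0.26, adjusted p = 0.0272, exact permutation p = 0.1). In females dap had 8.24, 8.99 and 11.3 CPM in dsxRNAi midguts, against 7.07, 11.6 and 10.1 CPM in control midguts, and these overlapped (log2 change -0.01, adjusted p = 0.99). The difference between the female and male changes was 0.61 (95% interval 0.10 to 1.12, unadjusted p = 0.0237) and was not called (adjusted p = 0.263). The male call was lost without dsxRNAi male 2 (adjusted p = 0.0912) or 3 (0.0686) or control male 1 (0.0633), 2 (0.0809) or 3 (0.0656).

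**Figure D2:**
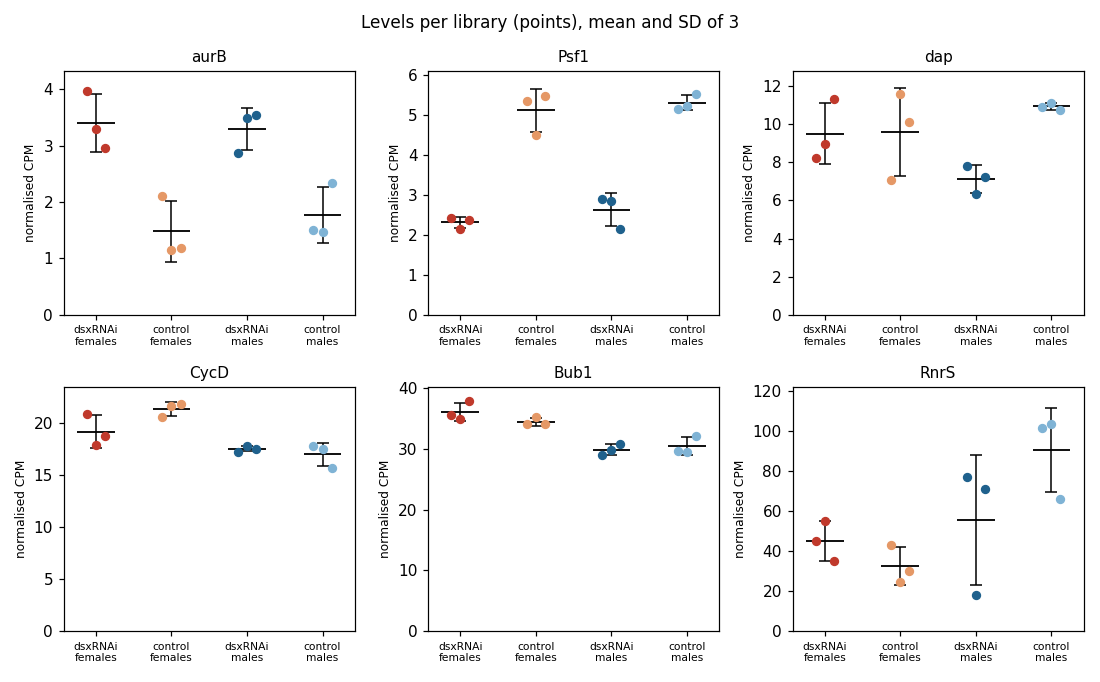
Normalised CPM in each library for aurB, Psf1, dap, CycD, Bub1 and RnrS, with the group mean as a long bar and 1 SD as a thin bar, 3 libraries per group. The 6 dsxRNAi libraries lie above the 6 control libraries for aurB and below them for Psf1, and RnrS is wide in dsxRNAi males, from 18.2 to 77.0 CPM.

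No close partner of these genes was called. CycE and Cdk2, the targets of Dacapo, had male log2 changes of -0.00 and -0.08 (adjusted p = 0.995 and 0.906). Incenp, the scaffold of the complex in which Aurora B works, had a level of 1.62 ± 0.438 CPM in dsxRNAi males and 2.41 ± 0.343 CPM in control males (SD, n = 3 each), a log2 change of -0.57 that was not called (95% interval -1.04 to -0.10, adjusted p = 0.103). In females its log2 change was 0.16 (adjusted p = 0.824). Without dsxRNAi male 3, Incenp and CycA were called lower in dsxRNAi males, and aurB and dap were not called. Cdk4, the kinase partner of cyclin D, had 13.2, 16 and 13.5 CPM in dsxRNAi males, against 11.3, 12.1 and 8.91 CPM in control males. These did not overlap, and the log2 change of 0.40 was not called (adjusted p = 0.0952).

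By role, the DNA synthesis and mitosis genes lay mostly below 0 in males. Of the 34 members, 26 had a negative log2 change in males, with a median of -0.33, while the median of all tested genes was -0.01. Of all 9686 tested genes, 5082 were negative there. All 3 DNA synthesis genes (PCNA, the sliding clamp of DNA polymerase, RnrL and RnrS) were negative, from -0.76 to -0.32. So were all 5 mitotic cyclin and entry genes, from -0.80 for CycB to -0.44 for Cdk1, and 7 of 8 genes for mitotic kinases, the spindle checkpoint and mitotic exit. The 11 genes of origin licensing and the Mcm helicase had a median of -0.04, with 6 below 0, and the 7 G1 regulators a median of -0.02. Of all these single changes only dap and aurB passed the test. The lowest adjusted p among the 32 members that were not called was 0.0952. In a whole-tissue sample, fewer cells of a type and less RNA per cell cannot be told apart.

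The size of the male shift of the members depended on single libraries. Between replicates, the median log2 deviation of the members had an SD of 0.24. Over all 12 leave-outs the median log2 change in males stayed below 0. Leaving out a female library, which is not in this comparison, kept it between -0.33 and -0.31. Without control male 3 the median was -0.02 and 19 members lay below 0, and without dsxRNAi male 3 it was -0.53 and 29 lay below 0. CycB had 0.930, 0.744 and 1.77 CPM in dsxRNAi males, against 1.60, 1.5 and 2.87 CPM in control males. In both groups the third library held the most CycB, and the groups overlapped. PCNA likewise had 0.902, 1.41 and 2.10 CPM in dsxRNAi males, against 1.2, 1.66 and 4.6 CPM in control males.

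In females the 34 members were spread about 0, with 19 below it and a median log2 change of -0.02. The median of all tested genes was 0.00, and 4869 of 9686 lay below 0. No role leaned far to either side, since the role medians lay between -0.06 and 0.05. The changes that were not called ran from -0.44 (Orc1, an origin recognition subunit) to 0.55 (dpa, the Mcm4 subunit of the helicase), with adjusted p-values of 0.324 or more. This balance also depended on single libraries. Without control female 1 the median was 0.29 with 7 members below 0, and without control female 2 it was -0.20 with 25 below 0.

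**Figure D3:**
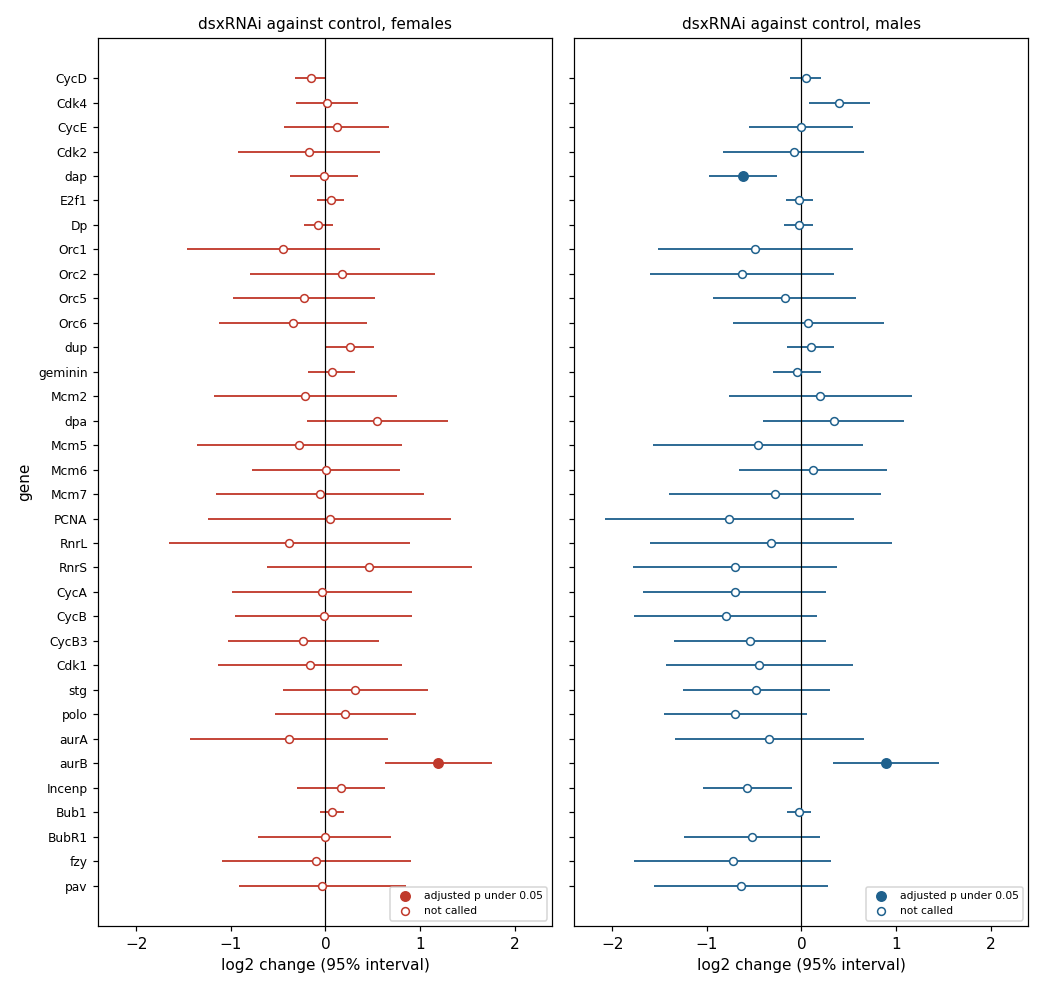
Log2 change of each member with its 95% interval, dsxRNAi over control, in females (left) and males (right), with filled points for adjusted p under 0.05. The filled points are aurB in both panels and dap in males, and intervals are narrow for E2f1, Dp, Bub1 and CycD and wide for PCNA, RnrL and Orc1.

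The precision differed between members. The 95% interval lay wholly within a log2 change of 1 to either side for 18 of 34 members in females and 13 of 34 in males, and the median half-width was 0.78 in each sex. For E2f1 the interval was -0.09 to 0.20 in females and -0.16 to 0.12 in males, and for Dp it was -0.22 to 0.08 in females and -0.18 to 0.12 in males. For PCNA it reached from -1.24 to 1.33 in females and from -2.08 to 0.55 in males. The E2F subunits were thus bounded closely and PCNA only loosely.

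The dsxRNAi effects of the sexes were compared directly by their difference. No member was called by edgeR's quasi-likelihood test (0 of 34, against 0.805% of all tested genes), and none by DESeq2. Unadjusted p-values under 0.05 were seen for 2 members, dap and Incenp (difference 0.73, adjusted p = 0.305). The median difference of the members was 0.20, with 24 above 0. The median of all tested genes was 0.02, with 5167 of 9686 above 0. Without control male 3 the median was 0.03, and without control female 1 it was 0.53.

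Between the sexes, 2 members were called in control flies, both higher in females. This was 2 of 34 members, against 20% of all tested genes. CycD, the G1 cyclin gene on the X chromosome (FBgn0010315, 15906822 to 15909676, minus strand), had 20.6, 21.6 and 21.9 CPM in control females, against 17.8, 17.5 and 15.7 CPM in control males. The groups did not overlap. The log2 difference, females over males, was 0.33 ± 0.07 (95% interval 0.17 to 0.49, adjusted p = 0.00813, exact permutation p = 0.1), and the call held in each of the 12 fits that left out 1 library.

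Under dsxRNAi, CycD had 20.9, 17.9 and 18.8 CPM in females, against 17.3, 17.8 and 17.6 CPM in males. The lowest female library lay just above the highest male one, and the log2 difference of 0.13 was not called (adjusted p = 0.27). The interaction for CycD was -0.20 (95% interval -0.43 to 0.03, adjusted p = 0.419), so the difference between these sex differences was not called either. These comparisons share no library.

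Bub1, a kinase of the spindle checkpoint (FBgn0031696, 2L, 5278865 to 5283283, plus strand), was called higher in females in both genotypes. It had 35.6, 35 and 37.8 CPM in dsxRNAi females, against 28.9, 29.8 and 30.8 CPM in dsxRNAi males. In controls it had 34.1, 35.2 and 34.1 CPM in females, against 29.7, 29.5 and 32.2 CPM in males. Each of the 6 female libraries lay above each of the 6 male libraries. The log2 difference was 0.27 ± 0.06 under dsxRNAi (95% interval 0.15 to 0.40, adjusted p = 0.00943), where it was 1 of 34 members called, against 14.8% of all tested genes, and the call held in each of the 12 leave-outs. In controls it was 0.18 ± 0.06 (95% interval 0.05 to 0.30, adjusted p = 0.0471). The control call was lost without a filter on low counts (adjusted p = 0.0577), with a minimum count of 50 (0.0536), with only the control groups fitted (0.092), and without any 1 control female library, control male 1 or control male 2, where adjusted p reached 0.152. The 95% interval of the dsxRNAi change of Bub1 was -0.06 to 0.19 in females and -0.15 to 0.10 in males.

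RnrS had the largest sex difference among the members without being called. It had 42.9, 24.7 and 30.1 CPM in control females, against 101, 104 and 66.2 CPM in control males. These groups did not overlap (log2 difference -1.47 ± 0.48, 95% interval -2.57 to -0.38, adjusted p = 0.0633). DESeq2, the fit of only the control groups, and the fit without dsxRNAi male 2 did call it. Under dsxRNAi it had 45, 54.7 and 35.1 CPM in females, against 77.0, 18.2 and 71.1 CPM in males. Here dsxRNAi male 2 was the lowest of all 12 libraries while the other dsxRNAi males lay above every female library, and the log2 difference was -0.30 (adjusted p = 0.71). RnrL, the large subunit of the same enzyme, had 8.77, 1.98 and 3.11 CPM in control females, against 2.36, 3.93 and 7.80 CPM in control males, and these overlapped (log2 difference -0.02, adjusted p = 0.986).

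For Cdk4 the sex difference under dsxRNAi had the other sign from that of its partner CycD. It had 11.2, 10.7 and 9.21 CPM in dsxRNAi females, against 13.2, 16 and 13.5 CPM in dsxRNAi males. These did not overlap, and the log2 difference of -0.46 did not pass the test (95% interval -0.79 to -0.14, adjusted p = 0.0578). It was called by DESeq2, with a minimum count of 50, in the fit of only the dsxRNAi groups and without control female 1 or control male 3. An exon of Cdk4 overlaps an antisense RNA, and 13 of the 34 members overlap an exon of a gene on the other strand. Whether reads were counted by strand is not given in the sources used here, so reads of such pairs may be mixed. aurB, dap, CycD, Bub1 and RnrS have no such overlap.

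The members varied more between replicates than most genes did. The spread that edgeR estimated for a gene was above the trend for genes of its abundance in 19 of 34 members (55.9%), against 19.9% of all tested genes. It was over 1.5 times the trend in 7 members (20.6%), against 6.38% of all tested genes. The widest were RnrS at 3.01 times, RnrL at 2.5 times and PCNA at 1.98 times the trend. The others over 1.5 times were CycA, Orc1, Mcm6 and Mcm2.

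Much of this spread followed whole libraries. Control female 1 had the highest level of its group for 27 of the 34 members, where 37.2% of all tested genes were highest there. Control female 2 had the lowest for 27 (37% of all genes). dsxRNAi male 3 was highest in its group for 25 members (30.9% of all genes) and control male 3 for 22 (35.1% of all genes). In dsxRNAi females, libraries 1 and 3 were highest for 16 and 17 members (36.7% and 32.3% of all genes). Library 2 of that group was lowest for 20 (33.8% of all genes). Orc1, for example, had 2.37, 1.25 and 1.36 CPM in dsxRNAi females, against 4.42, 0.978 and 1.37 CPM in control females. Relative to the group mean, the median member stood at 0.39 on the log2 scale in control female 1, -0.31 in control female 2, 0.25 in dsxRNAi male 3 and 0.27 in control male 3. The median of all tested genes lay within 0.01 of the group mean in every library.

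**Figure D4:**
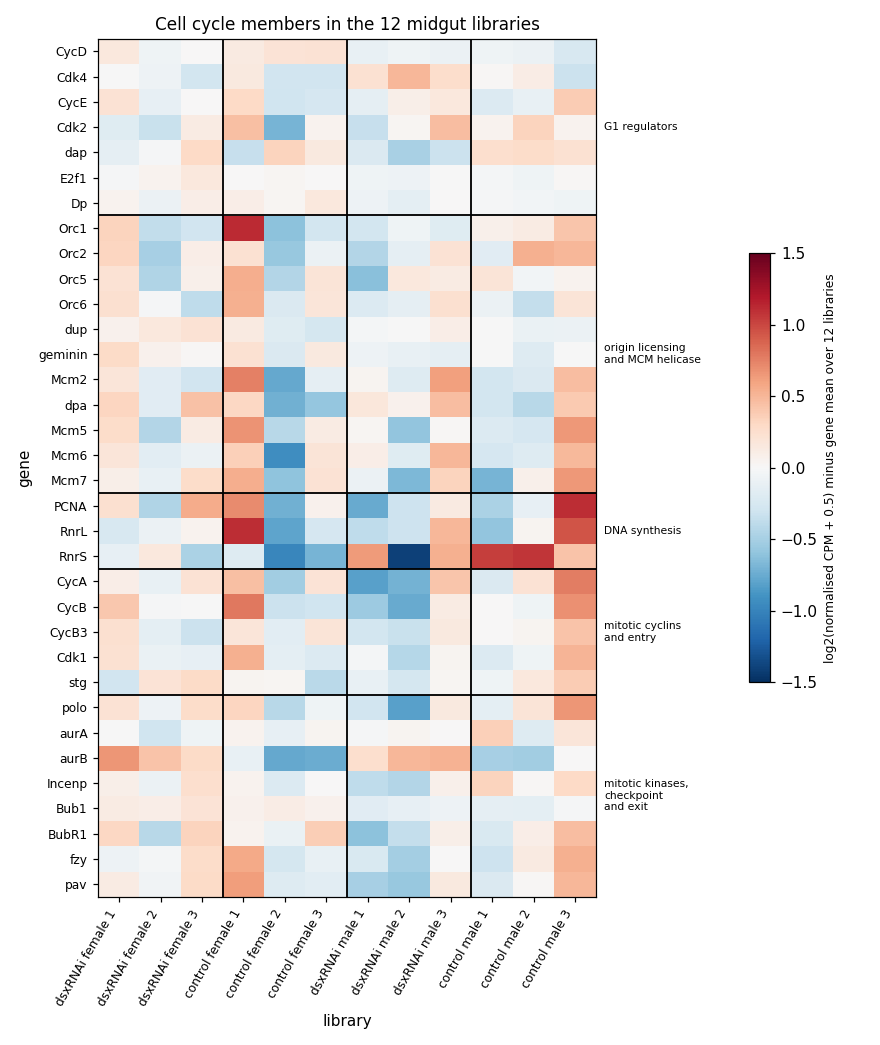
Level of each member in each of the 12 libraries, as log2(normalised CPM + 0.5) minus the gene's mean over the libraries, ordered by role. Control female 1, dsxRNAi male 3 and control male 3 are redder than the other libraries of their groups across the Mcm, DNA synthesis and mitotic genes, and aurB is redder in the dsxRNAi than in the control libraries.

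Replication and mitosis genes outside the members were highest mostly in the same libraries in 3 of the 4 groups. Of 37 other tested DNA replication genes, 33 were highest in control female 1, 26 in dsxRNAi male 3 and 26 in control male 3, each within its own group. Of 70 other tested mitosis and cytokinesis genes, 49 were highest in control female 1, 50 in dsxRNAi male 3 and 45 in control male 3. In dsxRNAi females the lists differed. There 31 of the 37 replication genes were highest in library 1 and 6 in library 3, while 31 of the 70 mitosis genes were highest in library 1 and 32 in library 3.

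Markers of stem cells and enteroblasts moved in part with these libraries. Of the 11 tested, 8 were highest in control female 1, 9 in dsxRNAi male 3 and 9 in control male 3, but in dsxRNAi females 8 were highest in library 3 and 2 in library 1. All 11 were lowest in dsxRNAi male 2. Sox21a, a transcription factor gene of stem cells and enteroblasts, had 6.62, 6.58 and 8.46 CPM in dsxRNAi females, against 14.6, 4.29 and 8.60 CPM in control females. It had 3.69, 2.56 and 8.80 CPM in dsxRNAi males, against 6.39, 7.96 and 16.5 CPM in control males. In dsxRNAi males against control males, all 11 progenitor markers had negative log2 changes (median -0.28), and 2 were called, the Notch pathway gene spdo (-1.45, adjusted p = 0.00807) and the transcription factor gene zfh2 (-0.53, adjusted p = 0.0255). Of the 12 leave-outs, spdo was called in 12 and zfh2 in 7, and exons of zfh2 overlap Tdg on the other strand. The summed level of the 12 progenitor markers in the table was 388 to 446 CPM in dsxRNAi males and 422 to 498 CPM in control males, and 423 to 490 CPM in dsxRNAi females and 419 to 461 CPM in control females. In males 6 of 12 enteroendocrine markers were also called lower (2 to 7 in the fits that left out 1 library, where 6.59% of all tested genes were called lower with every library), among them AstA (-0.66, adjusted p = 0.000195), which held in each leave-out, and their sum was 588 to 662 CPM in dsxRNAi males and 752 to 788 CPM in control males. The part of cell composition in the members' values was not tested.

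**Figure D5:**
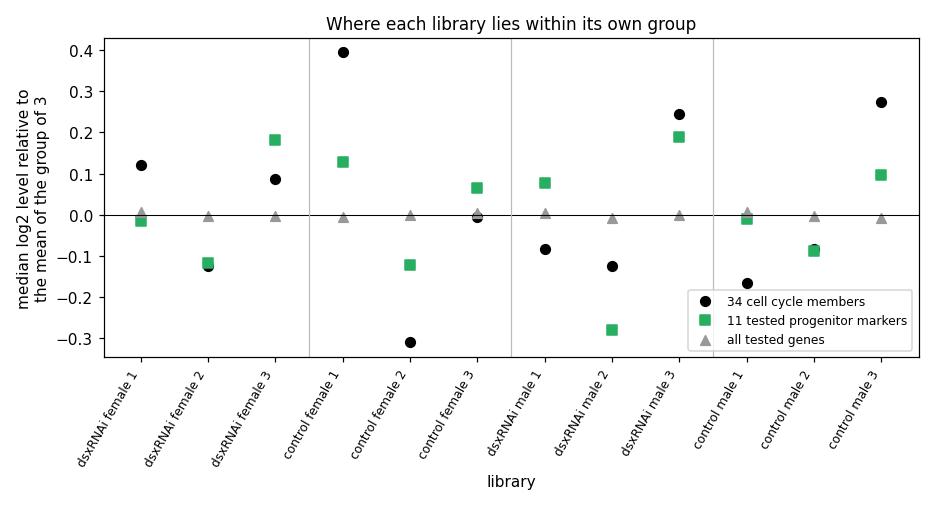
Median log2 level of the 34 members, of 11 progenitor markers and of all tested genes in each library, relative to the mean of the library's own group of 3. The members stand highest in control female 1 (0.39), control male 3 (0.27) and dsxRNAi male 3 (0.25) and lowest in control female 2 (-0.31), while all tested genes stay near 0.

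Of 37 other tested DNA replication genes, 1 was called lower and none higher in dsxRNAi midguts of each sex. It was Psf1 both times. Of all tested genes 6.59% were called lower in males and 1.55% in females. In males 19 of the 37 had negative changes and 18 positive ones, with a median of -0.01. Psf1 encodes a subunit of the GINS complex, which joins the Mcm helicase at the replication fork (FBgn0035194, 3L, 1246986 to 1247677, minus strand). It had 2.41, 2.16 and 2.38 CPM in dsxRNAi females, against 5.35, 4.52 and 5.49 CPM in control females, and 2.90, 2.85 and 2.16 CPM in dsxRNAi males, against 5.17, 5.24 and 5.52 CPM in control males. Each dsxRNAi library lay below each control library. Psf1 fell by 1.14 on the log2 scale in females (95% interval -1.45 to -0.84, adjusted p = 0.000435) and by 1.01 in males (95% interval -1.31 to -0.70, adjusted p = 0.00062), and the calls held in each of the 12 leave-outs, with adjusted p of 0.00418 or less. The Mcm genes, whose products it joins, had log2 changes from -0.28 to 0.55 in females and from -0.46 to 0.34 in males, none of them called.

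Of 36 other tested regulators of the G1/S step and of mitotic entry, 2 were called lower in dsxRNAi males and 1 in dsxRNAi females. None was called higher. Of all tested genes 6.59% were called lower in males and 1.55% in females. Cks85A, a small Cdk-binding protein gene, was called in both sexes. It had 4.02, 3.49 and 3.28 CPM in dsxRNAi females, against 5.05, 4.62 and 5.65 CPM in control females, and 2.96, 3.31 and 3.40 CPM in dsxRNAi males, against 4.77, 4.40 and 4.40 CPM in control males. The groups overlapped in neither sex, with log2 changes of -0.51 (adjusted p = 0.0489) in females and -0.49 (adjusted p = 0.0232) in males. The female call was lost without a filter on low counts (adjusted p = 0.0776) and with only the female groups fitted (0.185). It held in 2 of 12 leave-outs. The male call held in 6, all of them without a female library, and was lost without any 1 male library (adjusted p from 0.0518 to 0.105). Exons of Cks85A overlap 2 genes on the other strand. endos, a regulator of mitotic phosphatase activity, was lower in dsxRNAi males (-0.24, adjusted p = 0.0108), and its exons overlap CG6650 on the other strand.

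Of 70 other tested mitosis and cytokinesis genes, 4 were called lower in dsxRNAi males and none higher, and 1 was called higher in dsxRNAi females and none lower. Those in males were barr, a condensin subunit (-0.46, adjusted p = 0.0105), SA, a cohesin subunit (-0.36, adjusted p = 0.0105), Klp61F, a spindle kinesin (-0.98, adjusted p = 0.039), and Grip84, a part of the gamma-tubulin complex (-0.22, adjusted p = 0.0457). The one in females was cal1, which loads the centromere histone (0.48, adjusted p = 0.0171). Exons of cal1, Klp61F, SA and Grip84 overlap genes on the other strand, and those of barr do not. In males 50 of the 70 had negative changes, with a median of -0.10, where 5082 of all 9686 tested genes were negative. Of all tested genes 6.59% were called lower in males and 1.91% higher in females. Leaving out 1 library gave 1 to 4 called in males and 0 to 1 in females. Of the 12 leave-outs, Grip84 was called in males in 1, Klp61F in 4, barr in 10 and SA in 11. In females cal1 was called in 9. These leave-outs include those of libraries of the other sex, which are not in the comparison.

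Between the sexes in controls, 0 of the 37 other replication genes were called by edgeR (3 at an unadjusted p under 0.05), 3 of 36 regulators and 3 of 70 mitosis genes, where 20% of all tested genes were called. The regulators were ago, which marks cyclin E for breakdown (0.29, adjusted p = 0.0067), and mei-41, a DNA damage kinase (0.58, adjusted p = 0.015), both higher in females, and endos, lower in females (-0.25, adjusted p = 0.00584). The mitosis genes were Ndc80, a kinetochore gene (-1.11, adjusted p = 0.0141), and barr (-0.33, adjusted p = 0.043), lower in females, and Nipped-B, a cohesin loader (0.27, adjusted p = 0.033), higher in females. Leaving out 1 library moved the counts in controls to between 0 and 2 replication genes, 2 and 5 regulators and 0 and 5 mitosis genes. Of those 12 fits, barr was called in 2, Nipped-B in 7, mei-41 in 9, Ndc80 in 11, and ago and endos in 12. Under dsxRNAi 0 of 37, 1 of 36 and 5 of 70 were called, where 14.8% of all tested genes were, with 2 replication genes at an unadjusted p under 0.05. The regulator was lok, a DNA damage kinase gene, higher in females (0.40, adjusted p = 0.0176). Of the 5 mitosis genes 4 were higher in females, namely Grip84 (0.30, adjusted p = 0.0133), the ubiquitin-conjugating enzyme gene vih (0.33, adjusted p = 0.0175), the microtubule regulator msps (0.32, adjusted p = 0.0299) and Nipped-B (0.28, adjusted p = 0.0354). The other, Ndc80, was lower in females (-0.88, adjusted p = 0.0499) and was called in 3 of 12 leave-outs. Leave-outs called 0 to 5 mitosis genes here. Of the 12, Nipped-B was called in 6, msps in 8, and Grip84, vih and lok in 10 each. In both genotypes the 12 include leave-outs of libraries of the other genotype, which are not in the comparison. Exons of mei-41, endos, lok, vih, msps and Grip84 overlap genes on the other strand, and those of ago, Ndc80, barr and Nipped-B do not.

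The medians of the members had opposite signs in the sex comparisons, and the sign in controls depended on single libraries. Both medians were smaller than the SD of 0.24 between replicates of the members' median log2 deviation. In controls 22 of 34 were lower in females, with a median of -0.07, and under dsxRNAi 24 of 34 were higher in females, with a median of 0.15. The medians of all tested genes were -0.01 and 0.01 in the same comparisons. Of these 9686 genes, 4909 were lower in females in controls and 4998 higher in females under dsxRNAi. The control median was -0.44 without control female 1 and 0.13 without either control female 2 or control male 3. The dsxRNAi median ran from 0.05 to 0.25 over the leave-outs. Beside these values, 10 of 12 enteroendocrine markers were called lower in females in controls and 4 of 12 under dsxRNAi. Of all tested genes 9.27% were called lower in females in controls and 7.06% under dsxRNAi. Of the 11 progenitor markers 1, mira (-0.61, adjusted p = 0.0267), was called lower in females in controls. The call of mira held in 8 of 12 leave-outs. The part of these markers in the sex differences of the members was not tested.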

How the data were processed

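The values deposited by the authors are raw read counts, 1 table with a column for each of 12 libraries. Libraries were poly-A selected and strand-specific, made from 200 ng of RNA and read as pairs of 100 bp, per the labels' protocols. Reads were processed with TopHat2 2.0.11 and featureCounts on dm6, per the submitters' processing notes, and the strand setting of the counting is not given in the sources used here. In the table, 171 genes had no symbol. Gene positions and exon lengths came from an Ensembl annotation on dm6 coordinates.

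Counts were analysed in R 4.3.3 with edgeR 4.0.16: a filter with a minimum count of 10, TMM scaling, and a robust quasi-likelihood fit of 4 group means over 12 libraries. The 5 contrasts were dsxRNAi against control in each sex, females against males in each genotype, and the interaction, the female minus the male dsxRNAi effect. A call means an adjusted p under 0.05 (Benjamini-Hochberg, over all genes tested in the contrast), and every adjusted p given comes from this test unless another is named. Levels are TMM-scaled CPM, and edgeR's prior count for fitted changes was 0.125. The called members were also compared by exact permutation over libraries. The fit was tested on simulated data.

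The members and all 11 other lists (3 of pathway genes and 8 of cell type markers) were chosen with earlier results of these data known. Members called in a contrast are given by library; of other lists at most 4 called genes per contrast are named. Ndc80 under dsxRNAi, RnrS, Cdk4, CycB, PCNA, RnrL, Orc1 and Sox21a were added after their values were seen. Promoter sequences were not analysed here. Over all tested genes same-numbered libraries did not deviate together, so no replicate block was used. Intervals are at 95%. Alternatives were RLE scaling, DESeq2 1.42.0, TMM factors from a table lacking the 100 most abundant genes, no filter, a minimum count of 50, fits of only the groups compared, a replicate block and leaving out each library. Python 3.11.15 with matplotlib 3.10.9 drew the figures.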

Additional observations from a re-analysis of the deposited data

How the results depend on the processing

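The calls on members moved by 1 or more genes under several settings, and the called changes of members kept their sign under all of them. For females against males in controls, 1 member was called without a filter and 1 with a minimum count of 50, as Bub1 dropped out, and DESeq2 called 3. For females against males under dsxRNAi, 2 were called (Bub1 and Cdk4) by DESeq2, with a minimum count of 50, with only the groups compared and with the replicate block. For dsxRNAi in females, 0 were called when only the female groups were fitted, with 221 genes called in all, against 335, and DESeq2 called 601 genes in all. For the interaction DESeq2 called 341 genes in all, against 78, and 0 members. Leaving out 1 library gave 0 to 3 members called for dsxRNAi in males, 0 to 1 in females, 1 to 3 for sex in controls, 1 to 3 for sex under dsxRNAi and 0 to 0 for the interaction. Over all genes the same fits called 856 to 1576, 204 to 374, 1325 to 2120, 637 to 1617 and 33 to 127. With the replicate block, members called were 2, 1, 2, 2 and 0 and genes called in all 1452, 328, 1994, 1468 and 67, in the same order. Correlations of same-numbered libraries ran from -0.30 to 0.11 with no comparison having all 3 over 0.1, so over all genes the numbers do not pair the libraries. The median member alone stood on the same side of its group mean in same-numbered male libraries (dsxRNAi and control -0.08 and -0.17, -0.12 and -0.08, 0.25 and 0.27). In females it did so in libraries 1 (dsxRNAi and control 0.12 and 0.39) and 2 (-0.12 and -0.31), and not in 3 (0.09 and -0.01). The female call of Cks85A was lost with the block (adjusted p = 0.0738). The 2 other scalings left all counts of called members as they were. The leave-outs and scalings of the members' medians were chosen after seeing the data. The median half-width of the members' 95% intervals, which are unadjusted, was 0.78 on the log2 scale in either dsxRNAi comparison. Changes of this size or smaller could go uncalled, but it is no fixed limit of detection. In males CycB was not called at -0.80 (adjusted p = 0.257), while dap was called at -0.62. The parts of read depth and of spread between libraries in the half-width were not tested.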

Other observations

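Some tested neighbours of the called members were called too, and others were not. Of all tested genes, 14.6% were called for dsxRNAi in males and 3.46% in females. Between the sexes 20% were called in controls and 14.8% under dsxRNAi. Whether neighbours were called more often than other genes was not tested. SmydA-3, 2193 bases from aurB, rose in dsxRNAi males (log2 change 1.24, adjusted p = 0.0481) and had a log2 change of 1.36 in dsxRNAi females that was not called (adjusted p = 0.0729), at a mean of 0.349 CPM over all libraries. Dnz1, 153 bases from aurB, had log2 changes of 0.00 in females (adjusted p = 0.993) and 0.02 in males (adjusted p = 0.873), and Stam, 442 bases away on the other side, had changes of -0.16 (adjusted p = 0.617) and -0.24 (adjusted p = 0.198) in the same order. sqa, 92 bases from dap, fell in dsxRNAi males by 0.25 (adjusted p = 0.0299), and its log2 change was -0.07 in females (adjusted p = 0.765). porin, 5949 bases from aurB, rose in dsxRNAi males (0.27, adjusted p = 0.0427) and had a change of -0.02 in females (adjusted p = 0.956). Stim, 24819 bases from CycD, fell in dsxRNAi males (-0.22, adjusted p = 0.041). Between the sexes, shi, 106 bases from CycD, had a log2 difference of 0.14 in controls (adjusted p = 0.174). MSBP, 16713 bases from CycD, was higher in females in controls (0.38, adjusted p = 0.00321) and under dsxRNAi (0.29, adjusted p = 0.0232). CG15916, 15275 bases from CycD, was higher in females under dsxRNAi (0.44, adjusted p = 0.0291), with a difference of 0.29 in controls (adjusted p = 0.1). Bsg25D, 317 bases from Bub1, was higher in females under dsxRNAi (0.21, adjusted p = 0.0394), with a difference of 0.17 in controls (adjusted p = 0.0751).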
